A study of Mus musculus with 18 samples.

Results

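The genes described here are 32 genes of sterol synthesis and lipogenesis, taken by symbol from a list of pathway genes out of the 24602 genes of the deposited count table: 7 of the mevalonate arm, 10 of the squalene and sterol arm, 6 regulators and sterol transport genes, and 9 of fatty acid synthesis. They were followed in 18 mouse RNA-seq libraries, 3 in each of 6 groups: nuclear RNA and total RNA from mice with Nup93 R388W/R388W (Hom), Nup93 R388W/+ (Het) and Nup93 Wild type (WT), all on strain 129S1/SvlmJ as the series spells it. Nup93 codes for a scaffold protein of the nuclear pore, and the R388W change was knocked in, so that Hom mice carry it on both alleles and Het mice on one. The labels give no age, sex or treatment, and whether each library stands for its own mouse is not said, so p-values measure the spread between libraries, which may be technical. The sample labels name the material only as mouse tissue and the series text names podocytes. In the 6 group means the summed level of 12 proximal tubule markers was 33244 to 42453 CPM (read counts scaled to a common library size), against 397 to 611 CPM for 10 podocyte markers.

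Cholesterol is built from acetyl-CoA through mevalonate, farnesyl diphosphate and squalene, and the sterol rings are then trimmed step by step. Fatty acids are built from the same acetyl-CoA by carboxylation, chain synthesis, elongation and desaturation. Both routes are known targets of the SREBP transcription factors, of which the product of Srebf2 mainly drives sterol genes and that of Srebf1 mainly fatty acid genes. The SCAP protein escorts SREBP precursors out of the endoplasmic reticulum when sterols are scarce, and the INSIG proteins hold them back when sterols are plentiful. In the kidney, proximal tubule cells take up, make and oxidise lipid as part of their energy metabolism.

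Promoter sequences of 5 genes that are prominent in the comparisons are shown, to give the letters upstream of genes described together. RefSeq windows on build GRCm38.p6, reaching from 250 bases before to 50 bases after the start of transcription, were at hand for 26 of the 32 genes, and the counts themselves were made on build mm9. Capitals mark CCAAT on either strand (read as ATTGG on the other strand), the letters bound by NF-Y, a known partner of SREBP, and in Insig1 also CACGTG, an E-box. In Fasn the capitals hold 2 overlapping matches, 1 on each strand. The positions are Idi1 chr13:8885506-8885605 on the plus strand, Mvd chr8:122443423-122443522 on the minus strand, Cyp51 chr5:4104698-4104797 on the minus strand, Fasn chr11:120824548-120824647 on the minus strand and Insig1 chr5:28071187-28071326 on the plus strand. The first 4 stretches are the 100 bases before the start, and that of Insig1 lies further upstream in its window.
Idi1: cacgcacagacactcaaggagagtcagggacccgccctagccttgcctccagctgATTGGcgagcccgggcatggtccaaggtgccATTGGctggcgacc
Mvd: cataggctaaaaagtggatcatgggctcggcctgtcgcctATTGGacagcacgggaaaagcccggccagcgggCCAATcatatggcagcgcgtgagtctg
Cyp51: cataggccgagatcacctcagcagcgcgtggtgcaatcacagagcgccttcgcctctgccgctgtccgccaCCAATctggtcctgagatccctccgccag
Fasn: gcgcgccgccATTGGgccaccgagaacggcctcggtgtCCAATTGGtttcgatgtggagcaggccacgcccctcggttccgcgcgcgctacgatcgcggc
Insig1: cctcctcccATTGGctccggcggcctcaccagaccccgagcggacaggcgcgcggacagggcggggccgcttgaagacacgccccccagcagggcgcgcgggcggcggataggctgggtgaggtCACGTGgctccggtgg

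Of the 26 genes with a window, 22 (84.6%) held CCAAT on either strand, against 41.1% of all 27025 genes with windows. CACGTG stood in 6 of them (23.1%: Dhcr7, Elovl5, Hsd17b7, Insig1, Sc5d and Scap), against 8.09% of all genes. TCACNCCAC, one spelling of the sterol regulatory element, stood in 1 of them (3.85%), Hmgcs1, against 1.44% of all genes. These are letter matches in a fixed window, not measured binding, and nothing about a factor is drawn from their presence or absence.

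Depth was 17405493 to 23462056 counts per library. The column of Total_WT replicate 1 came with a total 10.2 times the mean of the others, and each gene's count summed over the 9 nuclear libraries was taken off it first. Total_Hom replicate 2 stood apart from its group when scaled by library totals. The median squared difference of its counts from each of the other 2 libraries was 4.81 times that of sampling noise, against 1.5 between those. The ribosomal RNA gene Rn45s took 7.12% of its counts, against at most 1.02% elsewhere. Rn45s enters the library totals used for the noise values, so the 2 signs are not independent. Hom, Het and WT also differed in a sex-linked signal that the labels do not give. Xist, transcribed from the inactive X chromosome, averaged 504 ± 10.8 CPM in Nuclear_Hom, 515 ± 25.5 in Nuclear_Het and 345 ± 10.6 in Total_WT, but 0.54 ± 0.20 in Nuclear_WT, 1.25 ± 0.37 in Total_Hom and 0.62 ± 0.49 in Total_Het (SD, n = 3 each). The summed level of 4 Y-linked genes ran the other way, at 0.61 to 2.58 CPM in the 3 groups with high Xist and 155 to 163 CPM in those with low Xist. Every comparison with WT therefore sets high-Xist against low-Xist libraries, and genotype and this split cannot be told apart there. Hom against Het, in either fraction, sets libraries of like Xist level against each other, so these comparisons come first. Within each genotype the nuclear and the total libraries differ in Xist, so they are not 2 fractions of the same samples.

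Of the 32 genes, 31 had counts and passed the filter on low counts in every fit. Hmgcs1, which codes for cytosolic HMG-CoA synthase, the committing condensation before mevalonate, was listed at 0 in all 18 libraries, as were 2 genes before it and 5 genes after it in RefSeq gene order, among them Ccl28, Nim1k and Zfp131. No level is read from these zeros. Per kilobase of the deposited gene length, the highest mean level over the 18 libraries was that of Scd1, a stearoyl-CoA desaturase, at 156 CPM per kb, followed by Me1, the malic enzyme that supplies NADPH, at 92.2, and Cyp51, the lanosterol demethylase, at 60.2. The lowest were Acaca, an acetyl-CoA carboxylase, at 4.22 CPM per kb and Lss, lanosterol synthase, at 5.08. Between the lowest and the highest of the 6 group means, Scd1 differed by a factor of 8.15, Idi1 by 6.70, Scd2 by 4.88, Fasn by 3.84, Cyp51 by 3.67 and Me1 by 3.51. Insig2 varied least, by a factor of 1.08. In 16 of these 31 genes the lowest group mean was that of Total_Hom.

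**Figure D1:**
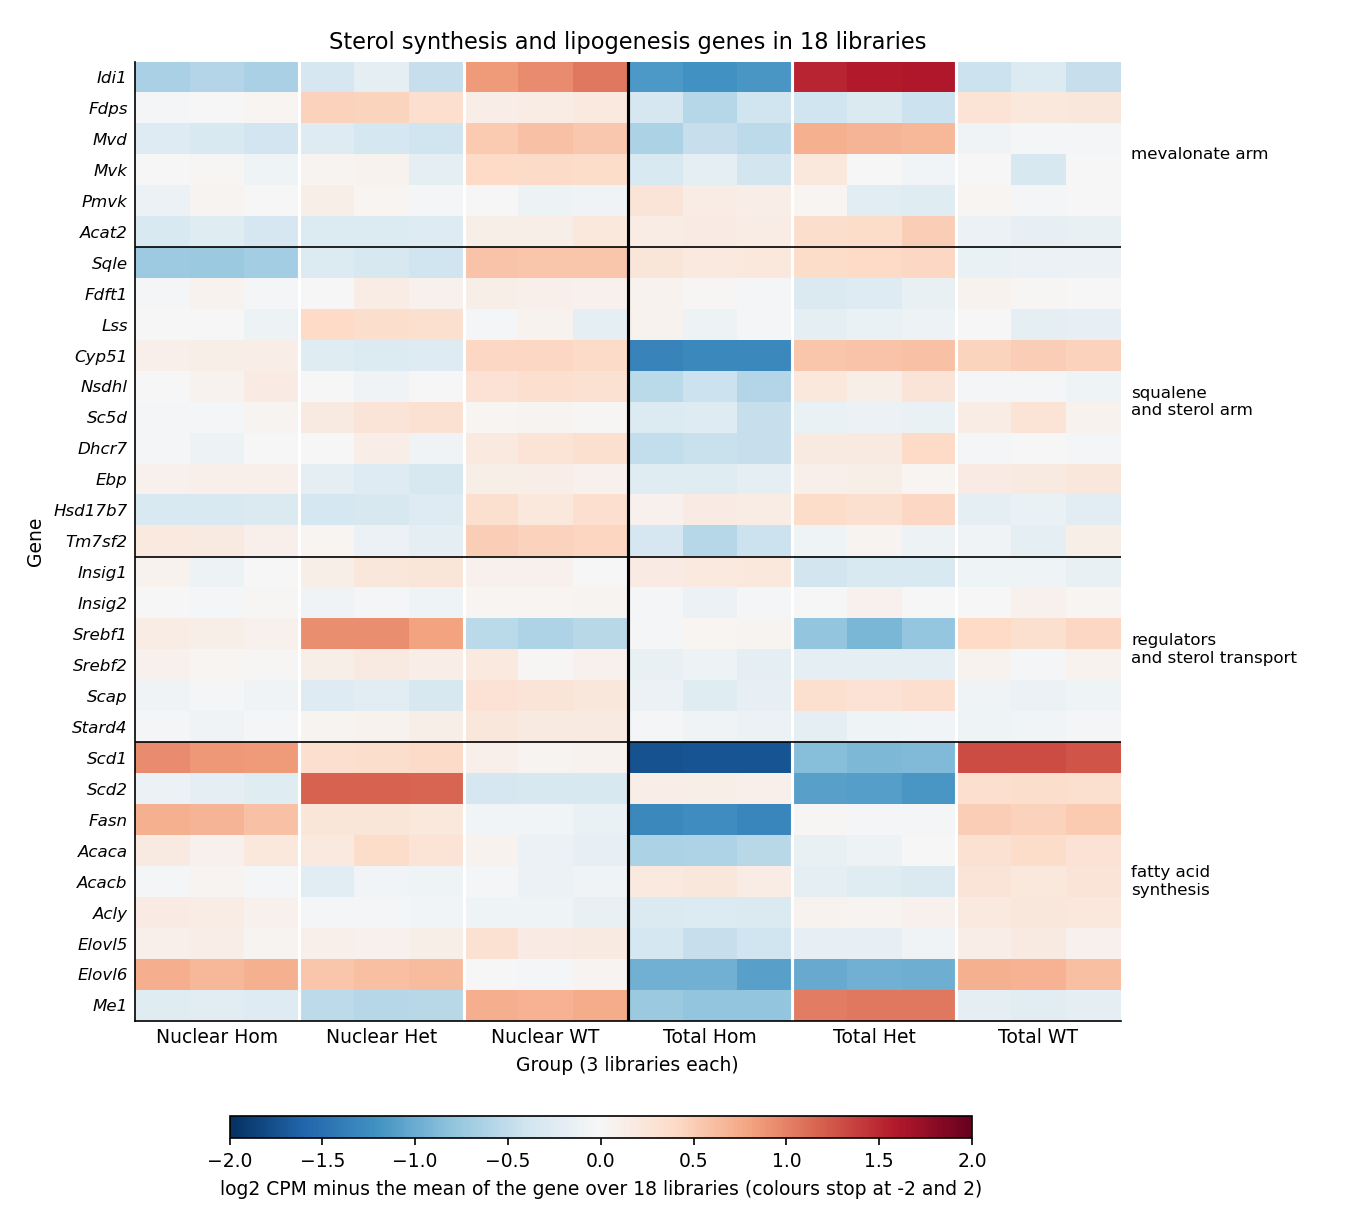
Heat map of 31 genes (rows, grouped by role) in 18 libraries (columns, 3 per group), showing log2 CPM of each library minus the mean of that gene over all libraries. Red is above and blue below that mean; the 3 libraries of a group look alike, and Total_Hom is blue for Cyp51, Scd1, Fasn and Idi1 where Total_Het is red, pale or less blue.

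In total RNA, Hom libraries held less RNA of the sterol pathway and of most fatty acid synthesis genes than Het libraries. The summed level of the squalene and sterol arm was 530 ± 2.89 CPM in Total_Hom and 878 ± 14.1 CPM in Total_Het, and that of the mevalonate arm 213 ± 1.06 CPM in Total_Hom and 330 ± 3.19 CPM in Total_Het (SD, n = 3 each). Fatty acid synthesis summed to 1078 ± 9.04 CPM in Total_Hom and 1729 ± 4.40 CPM in Total_Het. The libraries did not overlap in any of these 3 sums. The regulators and sterol transport genes summed to 533 ± 3.78 CPM in Total_Hom and 512 ± 6.23 CPM in Total_Het. By the quasi-likelihood test of edgeR, with p adjusted over all 15051 genes tested, 19 of the 31 genes were lower and 6 higher in Total_Hom; of all genes 67.0% passed the test, 34.1% as lower and 32.9% as higher. Their median log2 fold change was -0.25, against 0.01 for all genes tested. With library totals alone in place of TMM scaling, the median of all genes moved by 0.15 on the log2 scale, 68.4% instead of 49.1% of all calls were on the higher side, and the 31 genes split into 16 lower and 10 higher, with a median of -0.10 against 0.16 for all genes. Without Total_Hom replicate 2, 19 were lower and 7 higher. In bulk RNA such as this, fewer cells of a type and less RNA per cell cannot be told apart.

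In the mevalonate arm, 4 of the 6 genes tested fell and 1 rose. Idi1, which codes for the isomerase that makes the reactive isoprene unit, had 10.4, 10 and 10.4 CPM in Total_Hom, against 66.3, 69.4 and 70.5 CPM in Total_Het. Its groups lay far apart, and the difference was the largest fall among the 31 genes, with a log2 fold change of -2.74 ± 0.060 (SE, adjusted p = 2.56e-83). Mvd, the mevalonate diphosphate decarboxylase just before it, had 26.9, 30.2 and 29.0 CPM in Total_Hom and 68.3, 66.3 and 65.6 CPM in Total_Het, without overlap and with a log2 fold change of -1.22 ± 0.048 (adjusted p = 2.41e-52). The kinases of the steps before Mvd went in opposite directions: Mvk, which acts first, had a log2 fold change of -0.34 ± 0.072 and Pmvk of 0.31 ± 0.067, both past the threshold. Acat2, the thiolase that joins 2 acetyl-CoA units, fell by 0.25 on the log2 scale; its transcripts share 1477 bases at 97.7% identity with Acat3, so reads could be split between both. Fdps, farnesyl diphosphate synthase, was at -0.06 ± 0.056 and did not pass the test (adjusted p = 0.31), with overlapping groups.

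In the squalene and sterol arm, 8 of 10 genes fell and 1 rose. Cyp51 had 95.5, 99.1 and 98.5 CPM in Total_Hom, against 354, 360 and 364 CPM in Total_Het. All Hom libraries were below a level reached by every Het library, with a log2 fold change of -1.88 ± 0.025 (adjusted p = 3.32e-110). Dhcr7, the reductase that ends one branch of the route to cholesterol, had 21.3, 22.0 and 21.8 CPM in Total_Hom and 34.1, 34.2 and 39.4 CPM in Total_Het (log2 fold change -0.72 ± 0.059). Nsdhl, an X-linked dehydrogenase that helps to strip methyl groups from the ring, had 49.7, 53.7 and 48.4 CPM in Total_Hom and 83.3, 78.7 and 86.6 CPM in Total_Het (-0.71 ± 0.039). Neither gene's groups overlapped. The smaller falls were those of Tm7sf2, a sterol reductase, Ebp, an X-linked sterol isomerase, Hsd17b7, a keto-reductase, Sc5d, a desaturase, and Sqle, with log2 fold changes of -0.40 to -0.18. Sqle codes for squalene epoxidase, an oxygen-requiring step known to limit the route; it had 155, 150 and 151 CPM in Total_Hom and 170, 173 and 174 CPM in Total_Het, a log2 fold change of -0.18 ± 0.029 (adjusted p = 1.5e-08). With library totals alone it was at -0.03 and no longer passed. Fdft1, squalene synthase, rose by 0.25 ± 0.052; its exons overlap those of Ctsb on the opposite strand, and the strand setting of the counting is not given in the sources used here. Lss was at 0.12 ± 0.058 and did not pass (adjusted p = 0.0561).

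Among the regulators, Srebf1 had 88.8, 93.1 and 94.0 CPM in Total_Hom, against 52.4, 48.1 and 53.0 CPM in Total_Het. It was thus higher in every Hom library, with a log2 fold change of 0.85 ± 0.037 (adjusted p = 1.74e-47). Insig1, itself a known SREBP target, had 74.0, 75.2 and 76.0 CPM in Total_Hom and 50.9, 53.1 and 53.7 CPM in Total_Het (0.52 ± 0.039), again without overlap. Scap fell by 0.49 on the log2 scale, with 113, 104 and 109 CPM in Total_Hom and 154, 149 and 155 CPM in Total_Het. Srebf2, Insig2 and Stard4, a cytosolic sterol carrier, were at 0.04, -0.08 and 0.04 and none passed the test (adjusted p = 0.314, 0.0678 and 0.33). The sterol-side factor Srebf2 had a log2 fold change of 0.04 ± 0.032. Of the 16 tested sterol enzymes 12 fell, against 34.1% of all genes. A relation between the RNA level of the factor and these enzymes was not tested.

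In fatty acid synthesis, 6 of 9 genes fell and 2 rose. Me1 had 177, 171 and 171 CPM in Total_Hom, against 598, 613 and 611 CPM in Total_Het (log2 fold change -1.81 ± 0.023, adjusted p = 3.04e-114). Fasn, the fatty acid synthase, had 81.1, 83.7 and 80.6 CPM in Total_Hom and 201, 194 and 194 CPM in Total_Het (-1.26 ± 0.029, adjusted p = 2.85e-81). Both were lower in all Hom libraries by more than any spread within a group. The desaturases moved apart: Scd1 had 181, 182 and 181 CPM in Total_Hom and 333, 324 and 326 CPM in Total_Het (-0.85 ± 0.019). Scd2 had 196, 194 and 192 CPM in Total_Hom and 84.4, 83.6 and 80.0 CPM in Total_Het (1.23 ± 0.029, adjusted p = 1.09e-78), the largest rise among the 31 genes. The 2 genes share a stretch of 623 bases at 95.5% identity in the annotation, so some reads could be counted for either. The carboxylases also moved apart, with Acaca, the cytosolic lipogenic form, at -0.51 ± 0.056 and Acacb, the form at mitochondria that restrains fatty acid oxidation, at 0.42 ± 0.039. Acly, ATP citrate lyase, fell by 0.35 and Elovl5, an elongase of polyunsaturated chains, by 0.26, while Elovl6, the elongase of saturated chains, was at -0.02 ± 0.039 and did not pass (adjusted p = 0.673).

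Markers of cell types also differed between Total_Hom and Total_Het, in both directions, where 34.1% of all genes were lower and 32.9% higher in Total_Hom. Of 12 proximal tubule markers, 10 were lower and 2 higher in Total_Hom, with sums of 34592 ± 276 CPM in Total_Hom and 38464 ± 154 CPM in Total_Het. Of 10 endothelial markers, 9 were higher and 0 lower, with sums of 1598 ± 4.10 and 1065 ± 4.69 CPM for Total_Hom and Total_Het. Adipocyte markers split into 3 higher and 5 lower of 9, with sums of 457 ± 9.46 and 357 ± 5.65 CPM for Total_Hom and Total_Het. Podocyte markers were higher for 8 of 10 and lower for 0, with sums of 611 ± 7.08 CPM in Total_Hom and 397 ± 3.29 CPM in Total_Het. Of 7 hepatocyte markers, 4 were lower and 1 higher, with sums of 722 ± 11.9 and 1781 ± 19.2 CPM for Total_Hom and Total_Het, most of it Cyp2e1 at 654 ± 12.5 and 1557 ± 19.6 CPM, while Alb, the defining albumin gene, was at 2.93 and 5.39 CPM. The part of these shifts in the gene results was not tested.

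**Figure D2:**
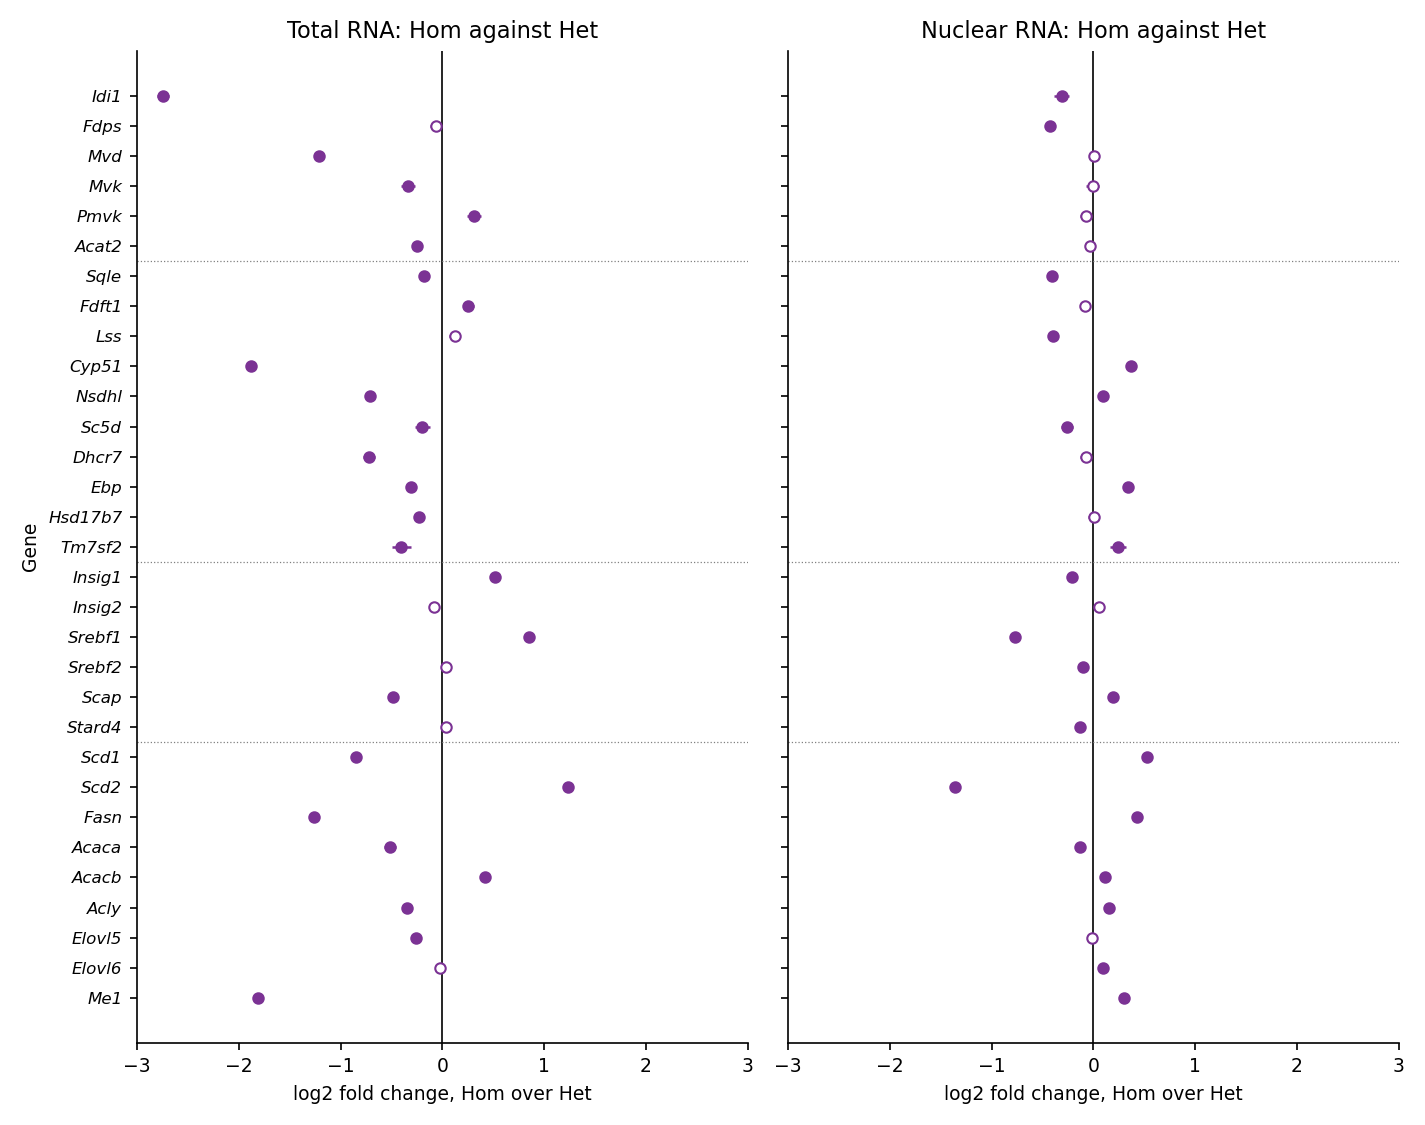
Log2 fold change of Hom over Het (horizontal axis) for 31 genes in total RNA (left) and nuclear RNA (right), with bars of 1 SE, mostly shorter than the points. Filled points passed the test (adjusted p under 0.05); 19 filled points lie left of 0 and 6 right of it in total RNA, against 11 and 11 in nuclear RNA.

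In nuclear RNA the same contrast looked different. Of the 31 genes, 11 were lower and 11 higher in Nuclear_Hom than in Nuclear_Het, against 21.8% lower and 21.4% higher (43.2% in either direction) among the 15112 genes tested, and the median log2 fold change was -0.01, against -0.00 for all genes. With library totals alone, 33.5% instead of 49.6% of all calls were on the higher side. The squalene and sterol arm summed to 666 ± 7.98 CPM in Nuclear_Hom and 624 ± 7.94 CPM in Nuclear_Het, and fatty acid synthesis to 2527 ± 68.7 and 2253 ± 13.0 CPM for Nuclear_Hom and Nuclear_Het. The mevalonate arm summed to 208 ± 4.81 CPM in Nuclear_Hom and 228 ± 8.49 CPM in Nuclear_Het.

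The largest nuclear falls were on the fatty acid side and its regulator. Scd2 had 164, 158 and 152 CPM in Nuclear_Hom, against 404, 406 and 401 CPM in Nuclear_Het, a log2 fold change of -1.36 ± 0.028 (adjusted p = 7.13e-61). Srebf1 had 101, 98.5 and 96.7 CPM in Nuclear_Hom and 173, 173 and 158 CPM in Nuclear_Het (-0.77 ± 0.035, adjusted p = 9.91e-35). Each was lower in all Hom libraries, while in total RNA both were higher in all Hom libraries. Fdps, Sqle, Lss, Idi1 and Sc5d also fell, by 0.42, 0.40, 0.40, 0.31 and 0.26 on the log2 scale. Insig1 and Stard4 fell by 0.21 and 0.13. Acaca at -0.13 passed although its groups overlapped. Srebf2 at -0.10 ± 0.033 passed in this fit (adjusted p = 0.0131) but not with DESeq2 or without Nuclear_Het replicate 2 (adjusted p = 0.0597 and 0.0901).

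The largest nuclear rise was that of Scd1, with 1161, 1104 and 1089 CPM in Nuclear_Hom, against 760, 772 and 786 CPM in Nuclear_Het (log2 fold change 0.53 ± 0.022, adjusted p = 2.89e-36). Fasn had 325, 320 and 298 CPM in Nuclear_Hom and 236, 234 and 229 CPM in Nuclear_Het (0.43 ± 0.028). Cyp51 had 259, 262 and 264 CPM in Nuclear_Hom and 205, 199 and 201 CPM in Nuclear_Het (0.37 ± 0.027). None of these 3 overlapped between groups, and all 3 were lower in Hom in total RNA. Ebp, Me1 and Tm7sf2 rose by 0.34, 0.30 and 0.24, and Scap by 0.20. Tm7sf2 shares 532 bases of exon with Vps51 on the same strand, and without Nuclear_Het replicate 3 it was at 0.20 and no longer passed (adjusted p = 0.0585). Mvd, with 34.7, 33.6 and 31.8 CPM in Nuclear_Hom and 34.8, 32.7 and 31.5 CPM in Nuclear_Het, was at 0.01 ± 0.053 (adjusted p = 0.929) and its groups overlapped. Insig2 was at 0.06 ± 0.042 (adjusted p = 0.284).

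Set side by side, 9 genes were lower in Hom in total RNA and higher in Hom in nuclear RNA, 3 were higher in total and lower in nuclear RNA, 4 were lower in both and 1 was higher in both. Of all genes tested, 34.1% were lower and 32.9% higher in Total_Hom, and 21.8% lower and 21.4% higher in Nuclear_Hom. The share of all genes with each pair of calls was not counted, so these counts are not read as particular to the listed genes. As their Xist levels differ, the nuclear and total libraries of a genotype come from different samples. Proximal tubule markers were higher in Nuclear_Hom for 11 of 12 and lower for 1, with sums of 38950 ± 355 CPM in Nuclear_Hom and 36029 ± 608 CPM in Nuclear_Het. All 9 adipocyte markers were higher in Nuclear_Hom, with sums of 408 ± 10.8 and 261 ± 5.12 CPM for Nuclear_Hom and Nuclear_Het; Adipoq, the adipocyte hormone adiponectin, was at 25.4 and 14.3 CPM. Of 10 immune markers, 9 were lower and 0 higher in Nuclear_Hom, with sums of 513 ± 10.1 CPM in Nuclear_Hom and 1515 ± 43.7 CPM in Nuclear_Het. Adipocytes are known for high Scd1 and Fasn, and the part of these shifts in the gene results was not tested.

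**Figure D3:**
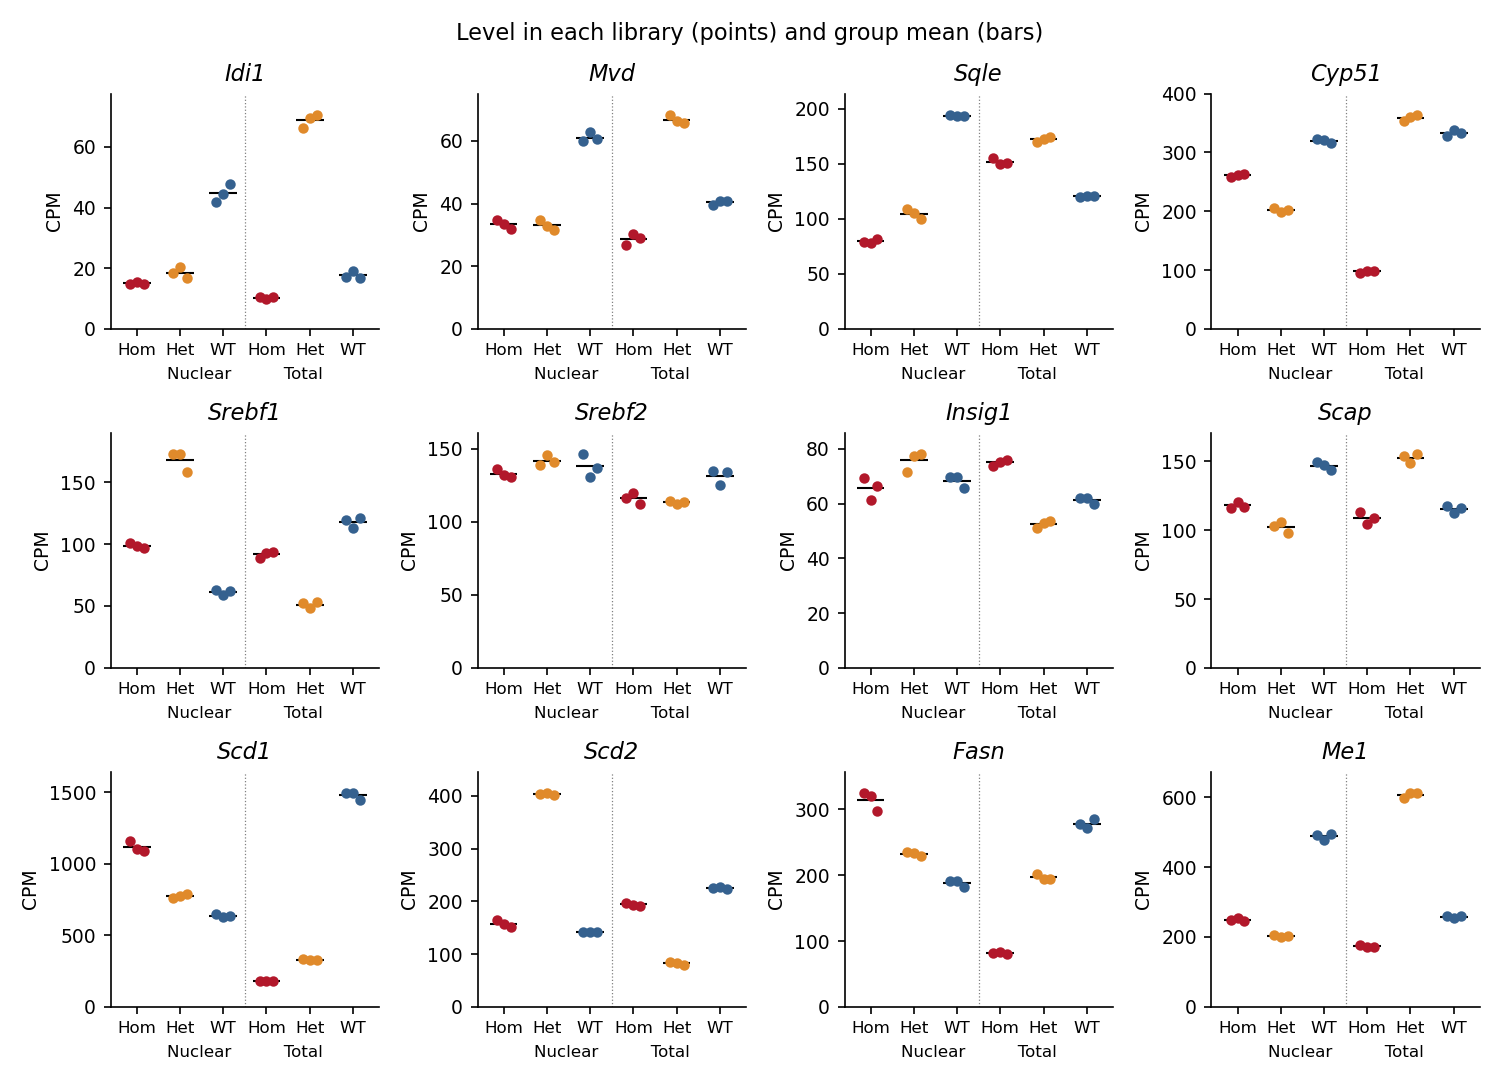
CPM (linear axes from 0) of 12 genes in each library (points) with the group mean (bar), for Hom (red), Het (orange) and WT (blue) in nuclear and total RNA. Idi1, Cyp51, Fasn and Me1 lie lowest in Total_Hom, and Scd2 and Srebf1 lie highest in Nuclear_Het and lowest in Total_Het.

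The ratio of nuclear to total RNA puts the same contrast in 1 model over 18 libraries. It is relative, since each library was scaled to its own total. In Hom and in Het the nuclear libraries are high-Xist and the total libraries low-Xist, so they come from different samples. Fraction and the Xist split therefore cannot be told apart in this ratio. Between Hom and Het the ratio was higher for 19 and lower for 11 of the 31 genes, against 31.7% and 31.9% (63.6% in either direction) of the 15410 genes tested; with library totals alone 29.1% instead of 49.8% of all calls were on the higher side. The log2 ratio was higher in Hom by 2.44 ± 0.099 for Idi1, 2.25 ± 0.037 for Cyp51, 2.12 ± 0.034 for Me1 and 1.70 ± 0.041 for Fasn. It was lower in Hom by a log2 difference of -2.59 ± 0.041 for Scd2, -1.61 ± 0.051 for Srebf1, -0.72 ± 0.056 for Insig1 and -0.51 ± 0.080 for Lss (all adjusted p at most 8.25e-09). Scap was at 0.69 ± 0.046, Sqle at -0.22 ± 0.045 and Scd1 at 1.38 ± 0.029. Cell type markers moved in this ratio too. Proximal tubule markers were higher for 10 of 12 and lower for 2 (median log2 difference 0.86), and adipocyte markers higher for 8 of 9 and lower for 0 (1.29). Immune markers were lower for 8 of 10 and higher for 1 (-1.60), and endothelial markers lower for 9 of 10 and higher for 1 (-0.57). The part of these markers was not tested.

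Against WT in nuclear RNA, sterol genes were mostly lower and fatty acid genes mostly higher in both mutant genotypes. In Nuclear_Hom, 15 of the 31 genes were lower and 7 higher, against 27.8% and 26.5% of all genes (54.3% in either direction), with a median log2 fold change of -0.09 against 0.02 for all genes. In the sterol arms, 11 of 16 tested genes fell and 0 rose, and in fatty acid synthesis 6 of 9 rose and 2 fell. With library totals alone, 73.9% instead of 48.8% of all calls were on the higher side, the median of all genes moved by 0.12, and 11 of the 31 genes were higher. Idi1 had 14.8, 15.4 and 14.8 CPM in Nuclear_Hom, against 41.9, 44.6 and 47.9 CPM in Nuclear_WT (log2 fold change -1.57 ± 0.063, adjusted p = 5.95e-39). Sqle had 78.9, 78.1 and 81.2 CPM in Nuclear_Hom and 194, 193 and 193 CPM in Nuclear_WT (-1.28 ± 0.034, adjusted p = 3.74e-53). Both were lower in every Hom library. Me1, Mvd, Hsd17b7 and Acat2 followed at -0.96 ± 0.026, -0.86 ± 0.048, -0.58 ± 0.047 and -0.44 ± 0.037, and Scap was at -0.31 ± 0.033. On the higher side were Scd1 at 0.82 ± 0.023, Fasn at 0.75 ± 0.029, Elovl6 at 0.70 ± 0.031, Srebf1 at 0.69 ± 0.039, Acly at 0.25 ± 0.027 and Acaca at 0.22 ± 0.053. Srebf2, Insig1 and Insig2, at -0.05, -0.05 and -0.04, did not pass, and with library totals alone their sign turned. All 9 adipocyte markers were higher in Nuclear_Hom, with sums of 408 ± 10.8 CPM in Nuclear_Hom and 162 ± 3.53 CPM in Nuclear_WT; their part was not tested. The hepatocyte sum was 265 ± 6.11 CPM in Nuclear_Hom and 1221 ± 10.8 CPM in Nuclear_WT, with Cyp2e1 at 202 ± 5.60 and 1131 ± 11.5 CPM, and proximal tubule markers split into 4 higher and 7 lower of 12.

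Nuclear_Het against Nuclear_WT gave 16 lower and 11 higher genes, against 31.7% and 32.8% of all genes (64.6% in either direction). The median was -0.09 against 0.02 for all genes, and with library totals alone 75.9% instead of 50.9% of all calls were on the higher side, with the median of all genes moved by 0.18. Scd2 had 404, 406 and 401 CPM in Nuclear_Het, against 142, 143 and 143 CPM in Nuclear_WT (log2 fold change 1.51 ± 0.028, adjusted p = 5.09e-65). Srebf1 had 173, 173 and 158 CPM in Nuclear_Het and 62.9, 59.2 and 61.8 CPM in Nuclear_WT (1.47 ± 0.037). These were the largest rises, followed by Elovl6 at 0.60, Lss at 0.42, Acaca at 0.35, Fasn at 0.32, Scd1 at 0.29 and Insig1 at 0.16. The groups did not overlap in any of these genes. Me1, with 205, 200 and 201 CPM in Nuclear_Het and 491, 476 and 496 CPM in Nuclear_WT, fell by 1.26 on the log2 scale, as did Idi1. Sqle, Mvd, Cyp51 and Hsd17b7 fell by 0.88, 0.87, 0.65 and 0.58, and Scap by 0.51. Srebf2 at 0.05 did not pass (adjusted p = 0.206). Insig2 at -0.09 passed narrowly (adjusted p = 0.0484) and did not in 12 of 16 alternative fits, among them each that left out a Nuclear_Het or Nuclear_WT library (-0.08 to -0.10). Immune markers were higher for 9 of 10 in Nuclear_Het, with sums of 1515 ± 43.7 CPM in Nuclear_Het and 555 ± 6.87 CPM in Nuclear_WT. Adipocyte markers were higher for 8 of 9 and lower for 0, with sums of 261 ± 5.12 CPM in Nuclear_Het and 162 ± 3.53 CPM in Nuclear_WT. Proximal tubule markers were lower for 9 of 12 and higher for 1, with sums of 36029 ± 608 CPM in Nuclear_Het and 42453 ± 59.3 CPM in Nuclear_WT. The hepatocyte markers split into 3 higher and 3 lower of 7, with sums of 209 ± 3.60 CPM in Nuclear_Het and 1221 ± 10.8 CPM in Nuclear_WT, most of it Cyp2e1. The part of these markers was not tested.

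**Figure D4:**
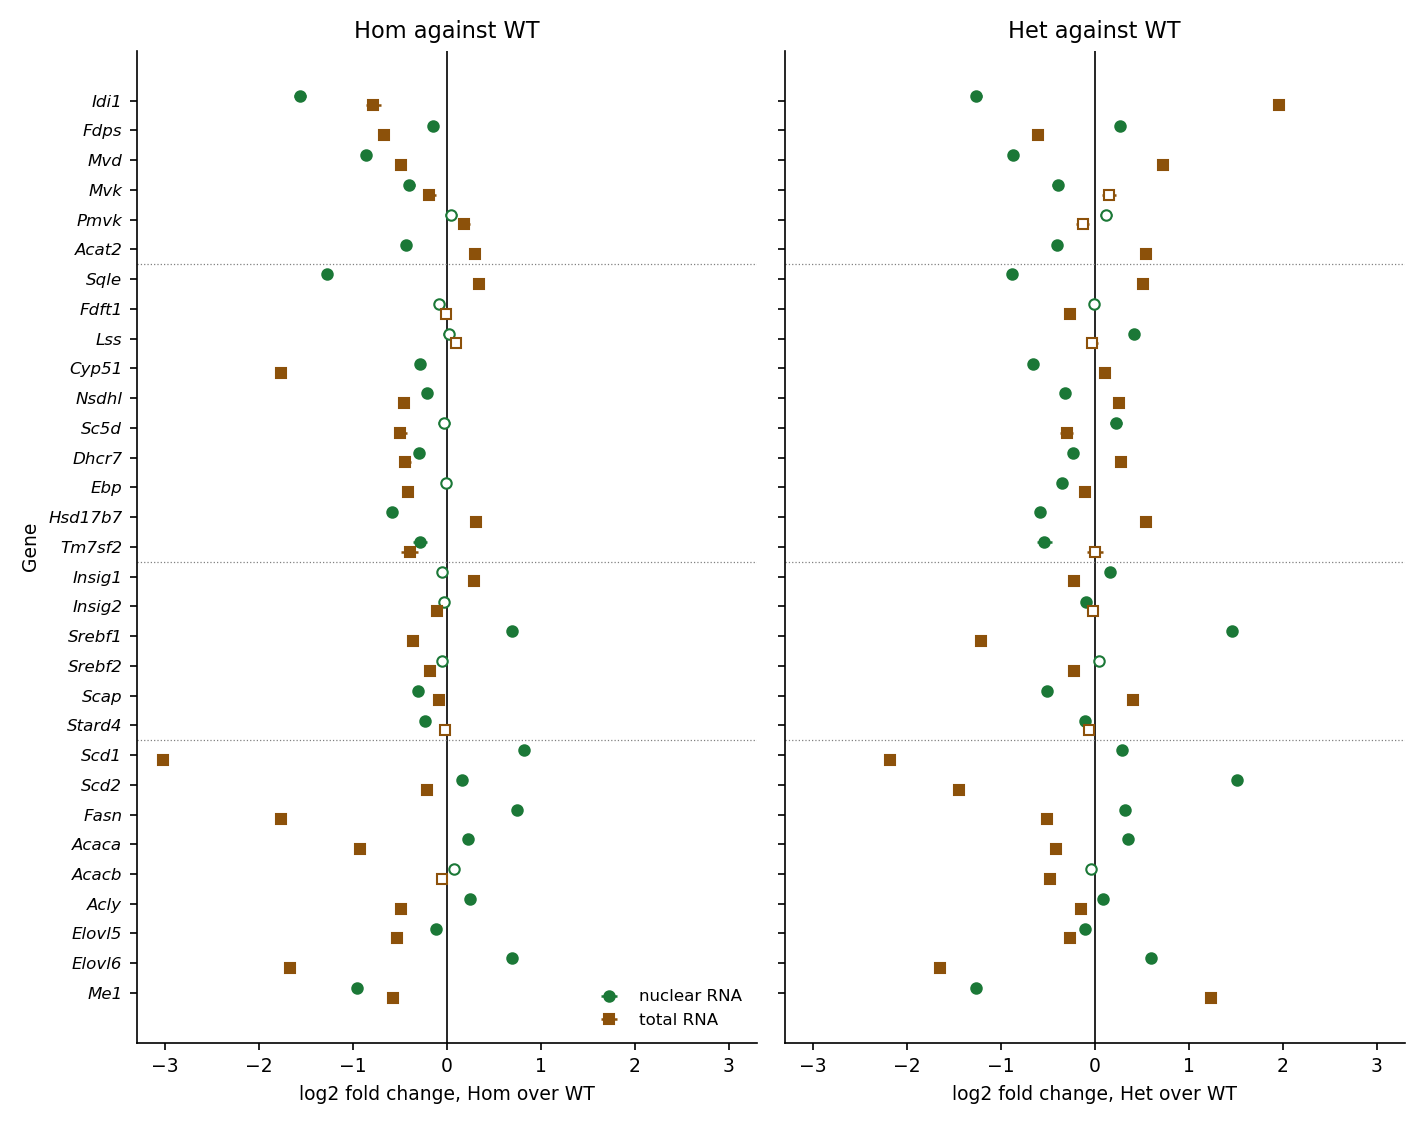
Log2 fold change over WT (horizontal axis) of 31 genes for Hom (left) and Het (right) in nuclear RNA (green circles) and total RNA (brown squares), with bars of 1 SE; filled symbols passed the test. For Scd1, Fasn, Elovl6 and Srebf1 the nuclear symbols lie right of 0 and the total symbols left of 0 in both panels, and for Sqle, Hsd17b7 and Acat2 the reverse.

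In total RNA against WT, fatty acid synthesis genes were mostly lower in both mutant genotypes. Total_Hom had 22 of the 31 genes lower and 5 higher, against 31.0% and 30.6% of all genes (61.6% in either direction), and the median log2 fold change was -0.40 against -0.00 for all genes. Without Total_Hom replicate 2, 20 were lower and 5 higher. Scd1 had 181, 182 and 181 CPM in Total_Hom, against 1494, 1493 and 1447 CPM in Total_WT, a log2 fold change of -3.03 ± 0.020 (adjusted p = 3.18e-152). Cyp51 had 95.5, 99.1 and 98.5 CPM in Total_Hom and 327, 338 and 333 CPM in Total_WT (-1.77 ± 0.025). Fasn had 81.1, 83.7 and 80.6 CPM in Total_Hom and 278, 272 and 285 CPM in Total_WT (-1.77 ± 0.028). All 3 were far lower in every Hom library. Elovl6 followed at -1.67 ± 0.034, Acaca at -0.92 ± 0.052, Idi1 at -0.78 ± 0.076 and Srebf1 at -0.36 ± 0.032. Srebf2, Insig2 and Scap, at -0.18, -0.10 and -0.08, also passed. Insig2 and Scap did not with DESeq2 (adjusted p = 0.0758 and 0.0636) or without Total_Hom replicate 2 (0.149 and 0.22), Insig2 not without Total_WT replicate 2 (0.0949), and Scap not without Total_WT replicate 1 or 3 (0.104 and 0.0534). The genes that were higher were Sqle at 0.34 ± 0.029, Hsd17b7 at 0.31 ± 0.046, Acat2 at 0.29 ± 0.034, Insig1 at 0.29 ± 0.037 and Pmvk at 0.18 ± 0.064, which did not pass without Total_WT replicate 2 or Total_Hom replicate 1 (adjusted p = 0.0501 and 0.0885). The endothelial marker sum was 1598 ± 4.10 CPM in Total_Hom and 1383 ± 10.5 CPM in Total_WT, with 6 of 10 markers higher and 2 lower. The hepatocyte sum was 722 ± 11.9 CPM in Total_Hom and 121 ± 2.52 CPM in Total_WT, most of it Cyp2e1 at 654 ± 12.5 CPM in Total_Hom and 71.1 ± 1.58 CPM in Total_WT, with 4 of 6 tested markers higher and 2 lower. Adipocyte markers split into 3 higher and 4 lower of 9, with sums of 457 ± 9.46 CPM in Total_Hom and 321 ± 5.35 CPM in Total_WT, and proximal tubule markers into 5 higher and 7 lower of 12. Most of the adipocyte sum was Fabp4, at 332 CPM in Total_Hom and 220 CPM in Total_WT. The part of these markers was not tested.

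Total_Het against Total_WT gave 15 lower and 10 higher genes, against 30.3% and 30.9% of all genes (61.1% in either direction). The median was -0.11 against -0.01 for all genes, and with library totals alone 24.5% instead of 50.5% of all calls were on the higher side, with the median of all genes moved by -0.18. Here the arms parted: 8 of 16 tested sterol genes rose and 4 fell, while 8 of 9 fatty acid genes fell and 1 rose. Idi1 had 66.3, 69.4 and 70.5 CPM in Total_Het, against 17.2, 19.1 and 16.8 CPM in Total_WT (log2 fold change 1.96 ± 0.054, adjusted p = 6.66e-71). Me1 had 598, 613 and 611 CPM in Total_Het and 261, 255 and 259 CPM in Total_WT (1.23 ± 0.022). Neither overlapped, and Mvd at 0.73, Acat2 at 0.54, Hsd17b7 at 0.54, Sqle at 0.52 and Scap at 0.41 were also higher. Scd1 had 333, 324 and 326 CPM in Total_Het and 1494, 1493 and 1447 CPM in Total_WT (-2.17 ± 0.019). Elovl6 at -1.65, Scd2 at -1.44, Srebf1 at -1.21, Fdps at -0.61, Fasn at -0.50, Insig1 at -0.22 and Srebf2 at -0.22 were lower, and Insig2 at -0.02 did not pass. Endothelial markers were lower for 9 of 10, with sums of 1065 ± 4.69 CPM in Total_Het and 1383 ± 10.5 CPM in Total_WT. The hepatocyte sum was 1781 ± 19.2 CPM in Total_Het and 121 ± 2.52 CPM in Total_WT, most of it Cyp2e1 at 1557 ± 19.6 CPM in Total_Het and 71.1 ± 1.58 CPM in Total_WT, with 3 of 6 tested markers higher and 3 lower. Proximal tubule markers were higher for 8 of 12 and lower for 4, with sums of 38464 ± 154 CPM in Total_Het and 33244 ± 343 CPM in Total_WT. Markers of the thick ascending limb and distal nephron were lower for 10 of 10, with sums of 9695 ± 16.9 CPM in Total_Het and 13321 ± 123 CPM in Total_WT. The part of these markers was not tested.

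Because every comparison with WT crosses the Xist split, the 31 genes were also read along it. In 8 of them all 9 high-Xist libraries (Nuclear_Hom, Nuclear_Het and Total_WT) lay on one side of all 9 low-Xist libraries (Total_Hom, Total_Het and Nuclear_WT), against 6.98% of all 15410 genes. Higher in all high-Xist libraries were 5 genes, against 2.65% of all genes: Srebf1, Scd1, Fasn, Acaca and Elovl6. Lower in all high-Xist libraries were 3 genes, against 4.33% of all genes: Sqle, Hsd17b7 and Acat2. Scd1 ranged from 760 to 1494 CPM in high-Xist and from 181 to 650 CPM in low-Xist libraries, and Sqle from 78.1 to 121 CPM in high-Xist and from 150 to 194 CPM in low-Xist libraries. Acaca separated narrowly, with 39.4 CPM in the lowest high-Xist and 39.1 CPM in the highest low-Xist library. The other 23 genes overlapped, Idi1, Cyp51, Me1, Mvd and Scd2 among them. This is a description of sorted libraries, and genotype, fraction and Xist level are not independent in it.

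**Figure D5:**
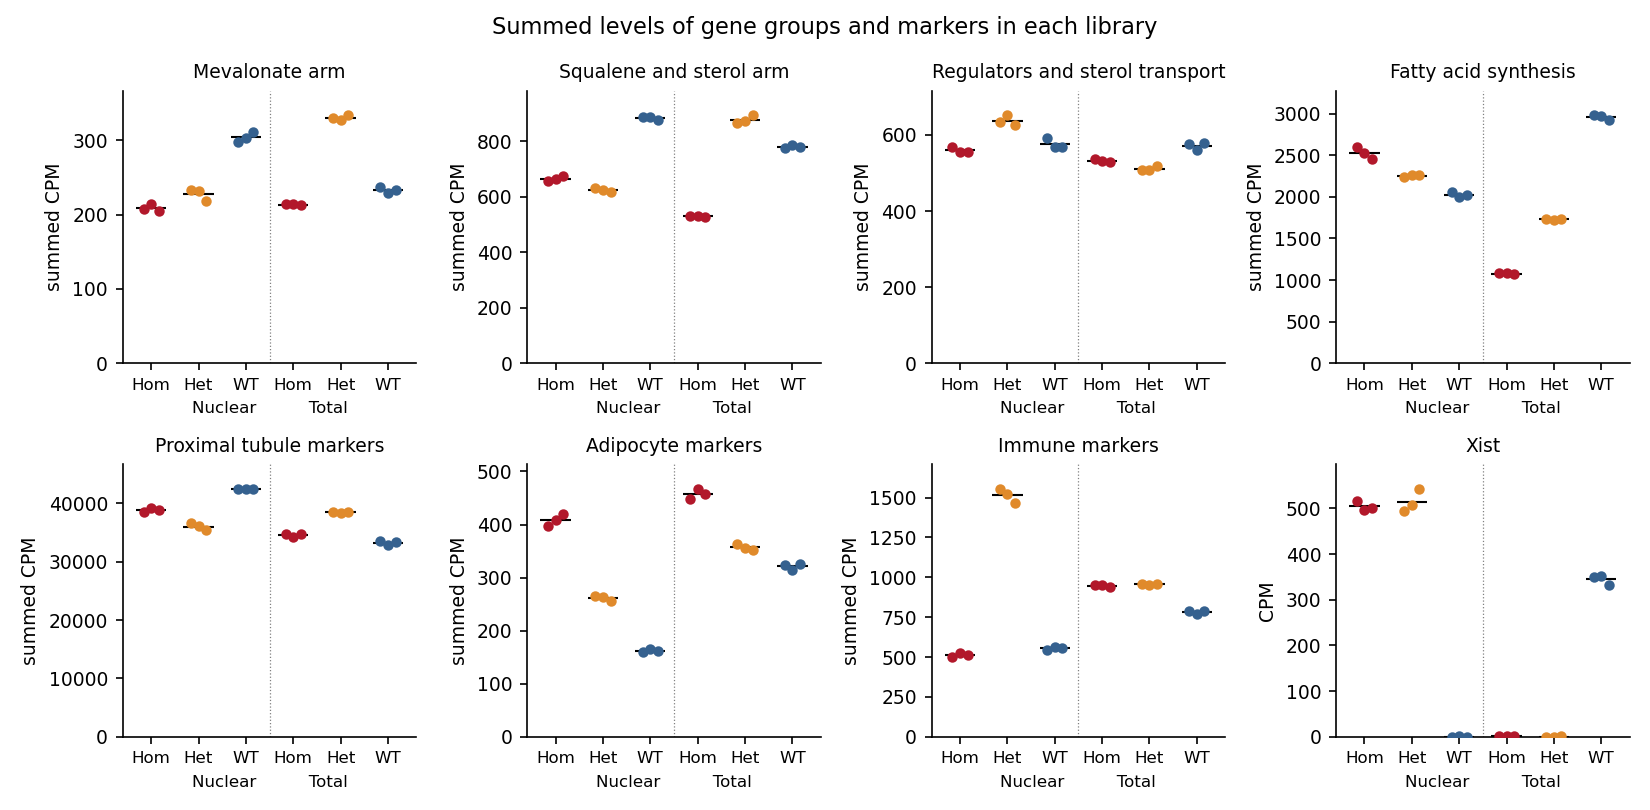
Summed CPM (Xist: CPM; linear axes from 0) of the 4 gene groups, of proximal tubule, adipocyte and immune markers and of Xist in each library (points) with the group mean (bar), for Hom (red), Het (orange) and WT (blue). The fatty acid synthesis sum is 1078 CPM in Total_Hom, 1729 in Total_Het and 2958 in Total_WT, and Xist is high in Nuclear_Hom, Nuclear_Het and Total_WT.

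The nuclear-to-total ratio compared with WT combines groups that differ in Xist in both fractions. For Hom the log2 ratio was higher for 15 and lower for 9 genes, against 28.4% and 27.7% of all genes (56.1% in either direction), and with library totals alone 70.4% instead of 50.7% of all calls were on the higher side. Differences were 3.85 ± 0.029 for Scd1, 2.52 ± 0.041 for Fasn, 2.37 ± 0.047 for Elovl6 and 1.49 ± 0.036 for Cyp51, and -1.61 ± 0.044 for Sqle, -0.89 ± 0.065 for Hsd17b7, -0.78 ± 0.103 for Idi1 and -0.72 ± 0.051 for Acat2. For Het 16 were higher and 13 lower, against 37.8% and 32.9% of all genes (70.7% in either direction), and with library totals alone 78.7% instead of 53.4% of all calls were on the higher side. There the differences were 2.96 ± 0.041 for Scd2, 2.67 ± 0.052 for Srebf1, 2.47 ± 0.029 for Scd1 and 2.25 ± 0.048 for Elovl6, and -3.22 ± 0.082 for Idi1, -2.49 ± 0.034 for Me1, -1.60 ± 0.066 for Mvd and -1.39 ± 0.044 for Sqle. Which part of these is fraction and which is the Xist split cannot be told apart.

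Other genes of the pathway were read for Hom against Het, where 32.9% of all genes were higher and 34.1% lower in Total_Hom and 21.4% higher and 21.8% lower in Nuclear_Hom. Of 5 further sterol pathway enzymes, 3 were lower and 0 higher in Total_Hom, and likewise in Nuclear_Hom. Among 8 genes of SREBP processing and sterol-regulated degradation, 5 were lower and 0 higher in Total_Hom, and 1 lower and 4 higher in Nuclear_Hom. In total RNA Erlin1 and Erlin2, scaffold proteins of the degradation machinery, fell by 0.49 and 0.46, and the ubiquitin ligase gene Rnf145 by 0.28. The lowest log2 fold change of this list in total RNA was -1.28, in a gene not named here.

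Of 10 genes of cholesterol uptake, trafficking and storage, 5 were higher and 4 lower in Total_Hom, and 1 higher and 6 lower in Nuclear_Hom. Of all genes, 32.9% were higher and 34.1% lower in Total_Hom, and 21.4% higher and 21.8% lower in Nuclear_Hom. The median log2 fold change of the list was 0.00 in total RNA, against 0.01 for all genes, and -0.18 in nuclear RNA, against -0.00 for all genes. Lipa, the lysosomal lipase, averaged 130 ± 1.06 CPM in Total_Hom and 219 ± 4.72 CPM in Total_Het. Mylip, a ligase that LXR is known to induce, averaged 99.8 ± 3.06 and 57.6 ± 1.87 CPM for Total_Hom and Total_Het, and Npc2, a lysosomal sterol carrier, 200.3 ± 4.50 and 168 ± 1.12 CPM. Of 10 genes around LXR, efflux and oxysterols, 8 were tested, and 4 were higher and 3 lower in Total_Hom, and 2 higher and 5 lower in Nuclear_Hom. Their median log2 fold change was 0.10 in total RNA, against 0.01 for all genes, and -0.22 in nuclear RNA, against -0.00 for all genes. Abcg1, a sterol exporter, averaged 37.3 ± 3.29 CPM in Total_Hom and 15.2 ± 0.45 CPM in Total_Het, a rise of 1.30 ± 0.064 on the log2 scale. Abca1, the exporter that loads apolipoprotein, averaged 74.5 ± 2.39 and 40.5 ± 1.93 CPM, and Nr1h3, which codes for LXR alpha, 37.1 ± 2.97 and 60.2 ± 2.16 CPM, for Total_Hom and Total_Het. Cyp7b1, an oxysterol hydroxylase, averaged 64.8 ± 0.86 CPM in Total_Hom and 374 ± 5.46 CPM in Total_Het, a log2 fold change of -2.53 ± 0.030. In nuclear RNA Abca1 averaged 83.4 ± 5.28 CPM in Nuclear_Hom and 128 ± 1.39 CPM in Nuclear_Het, a log2 fold change of -0.62 ± 0.038, and Abcg1, Nr1h3 and Cyp7b1 were at -0.18 ± 0.058, 0.26 ± 0.045 and -1.74 ± 0.092. Abca1 and Abcg1 were thus higher in Total_Hom and lower in Nuclear_Hom, Nr1h3 the reverse, and Cyp7b1 lower in both.

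Of 20 other lipogenesis and acyl chain genes, 19 were tested, of which 12 were lower and 4 higher in Total_Hom, and 6 lower and 8 higher in Nuclear_Hom. Among all genes, 34.1% were lower and 32.9% higher in Total_Hom, and 21.8% lower and 21.4% higher in Nuclear_Hom. The median log2 fold change of the list was -0.38 in total RNA, against 0.01 for all genes, and 0.08 in nuclear RNA, against -0.00 for all genes. Acss2, which makes acetyl-CoA from acetate, averaged 230 ± 0.58 CPM in Total_Hom and 520 ± 2.57 CPM in Total_Het (log2 fold change -1.17 ± 0.023), and in nuclear RNA 233 ± 3.45 CPM in Nuclear_Hom and 169 ± 3.28 CPM in Nuclear_Het (0.46 ± 0.027). Aacs, which makes acetoacetyl-CoA, averaged 80.1 ± 3.14 CPM in Total_Hom and 155 ± 2.45 CPM in Total_Het (-0.95 ± 0.033), and 54.5 ± 1.40 CPM in Nuclear_Hom and 43.1 ± 1.45 CPM in Nuclear_Het (0.33 ± 0.043). Both were lower in Hom in total RNA and higher in Hom in nuclear RNA. Gpam, the first acyltransferase of glycerolipid synthesis, averaged 68.9 ± 1.1 CPM in Total_Hom and 104 ± 3.61 CPM in Total_Het, and 91.4 ± 6.33 CPM in Nuclear_Hom and 55.8 ± 0.32 CPM in Nuclear_Het. Fads2, a desaturase of polyunsaturated fatty acids, averaged 111 ± 1.21 CPM in Total_Hom and 158 ± 6.07 CPM in Total_Het.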

How the data were processed

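Per the labels' protocols, RNA of nuclei and of total extracts was isolated with TRIzol, and a KAPA Stranded mRNA-Seq kit was used. The submitters' processing notes name build mm9, featureCounts, STAR 2.5.2b, CASAVA and DESeq2, without order or settings. The deposited values are raw counts by gene symbol, beside each gene's length. The nuclear columns' sum (181106189 counts) was subtracted from Total_WT replicate 1 (200140709), leaving 19034520 and 0 genes below that sum. Counts were tested in edgeR 4.0.16 (R 4.3.3): filterByExpr, TMM, robust quasi-likelihood fits of the 9 libraries of a fraction, or of all 18 for ratios, with Benjamini-Hochberg adjusted p under 0.05. CPM are scaled by TMM over 18 libraries, with SD over 3 libraries, and log2 fold changes have SE from the fit. The variation between libraries that edgeR fitted (a coefficient of variation) was 3.05% in nuclear and 3.90% in total RNA. The procedure was tested on simulated data. Named were, per comparison within a fraction, up to 6 called genes with the highest and 6 with the lowest log2 fold change, their mean being 5 CPM or more (4 and 4 for ratios), the regulators Srebf1, Srebf2, Scap, Insig1 and Insig2, and Hmgcs1, Sqle, Fasn and Scd1, plus up to 4 genes by smallest p from each other list; further genes are named to account for all 32. A few genes picked by this rule are left out here. The genes and lists were chosen with earlier results of these data known. Near-identical copies (at least 100 bases at 95% identity) were sought with BLAST 2.17.0 and exon overlaps in GENCODE: Fdps, Idi1, Me1, Acaca, Fdft1, Elovl6 and Insig1 match copies that are not in the count table, so their values carry that uncertainty. Exons of 12 of the 32 genes overlap those of another gene. Among them are Cyp51 with Akap9 (166 bases) and Srebf1 with Rai1 (109 bases), both on the opposite strand, as for Fdft1. Counting error adds to the spread of low values. The fits were repeated with 2 other filters, with library totals alone or RLE size factors, with DESeq2 1.42.0, with a replicate block, with other sample sets, with Total_WT replicate 1 unadjusted, and without each library in turn.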

Additional observations from a re-analysis of the deposited data

Results flagged for a closer look

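Differences of the nuclear-to-total ratio between genotypes, by the interaction term of edgeR, are the values picked out here, 8 in each comparison. For Hom against WT the log2 differences were 3.85 for Scd1, 2.52 for Fasn, 2.37 for Elovl6, 1.49 for Cyp51, -1.61 for Sqle, -0.89 for Hsd17b7, -0.78 for Idi1 and -0.72 for Acat2. For Het against WT they were 2.96 for Scd2, 2.67 for Srebf1, 2.47 for Scd1, 2.25 for Elovl6, -3.22 for Idi1, -2.49 for Me1, -1.60 for Mvd and -1.39 for Sqle. These 16 set high-Xist against low-Xist libraries in both fractions, and genotype and that split cannot be told apart. For Hom against Het, where the Xist levels are alike within each fraction, they were 2.44 for Idi1, 2.25 for Cyp51, 2.12 for Me1, 1.70 for Fasn, -2.59 for Scd2, -1.61 for Srebf1, -0.72 for Insig1 and -0.51 for Lss. In both of these genotypes, however, the nuclear libraries are high-Xist and the total libraries low-Xist. Fraction and the Xist split therefore cannot be told apart in these ratios. Cell type markers moved in these ratios too, and their part was not tested. With 3 libraries per group, single libraries were not tested as outliers.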

How the results depend on the processing

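The 18 counts of higher and lower genes were recomputed under each alternative: 352 recomputed counts stayed within 1.5 times the reported one and 2 did not, both with library totals alone, with 11 instead of 7 higher genes in nuclear Hom against WT and 10 instead of 6 in total Hom against Het. Among 9 changes of sign of single genes, 7 came with library totals alone: in nuclear Hom against WT Srebf2 0.0737, Insig1 0.0699 and Insig2 0.0871, in nuclear Het against WT Insig2 0.0851, in total Hom against Het Insig2 0.0683, and in the ratio Insig2 -0.0657 (Hom against Het) and 0.2836 (Het against WT). Insig2 also changed sign in the ratio of Het against WT with genes of 5 CPM or more on average (0.0015) and in total Het against WT without Total_Het replicate 3 (0.0017; lowest with a library left out -0.0463). The cause was not tested.

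Same-numbered libraries of different genotypes within a fraction did not deviate together (correlations of -0.024 to 0.018 in nuclear and -0.038 to 0.024 in total RNA, 0 over 0.1). As the spread between libraries may be technical, this cannot show whether the numbers pair the samples. Nuclear and total libraries were not compared in this way. With a replicate block, total Hom against Het again had 19 lower and 6 higher genes, nuclear Hom against Het 11 and 11, nuclear Hom against WT 15 and 7, total Hom against WT 22 and 5, nuclear Het against WT 15 and 11 and total Het against WT 15 and 11.

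Leaving out 1 library at a time gave 18 to 20 lower and 6 to 7 higher genes in total Hom against Het, 9 to 11 lower and 8 to 11 higher in nuclear Hom against Het, 14 to 15 lower and 7 higher in nuclear Hom against WT, 13 to 16 lower and 11 to 12 higher in nuclear Het against WT, 20 to 22 lower and 4 to 6 higher in total Hom against WT, and 14 to 16 lower and 10 to 11 higher in total Het against WT. In the ratio it gave 10 to 11 lower and 17 to 19 higher for Hom against Het, 9 to 10 lower and 13 to 15 higher for Hom against WT, and 13 lower and 15 to 16 higher for Het against WT. Over all 31 genes, 9 comparisons and all alternatives, 116 calls were lost, 49 gained and 0 turned in direction. Among the values of genes named in a comparison that kept their sign, 37 no longer passed (19 of Insig2) and 8 newly passed. Among those that changed sign, with library totals alone, Insig2 no longer passed in nuclear Het against WT and in the ratio of Hom against Het. It newly passed in the ratio of Het against WT. With 3 libraries per group and no sex in the labels, genotype effects against WT are limited by the Xist split.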
